A study of Mus musculus with 2 samples.

Results

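Dividing myeloid cells of the retina are described here, 251 of 10747 cells, with 238 of them from a light-damaged library and 13 from a control library. They were chosen by their own transcript levels. A cell counted as dividing when Top2a, Birc5, Mki67, Ube2c, Cdk1, Ccna2 and Rrm2 together made up at least 5 of every 10000 of its UMIs (unique molecular identifiers, 1 per captured RNA molecule). Dividing and non-dividing cells were then placed in classes by P2ry12, Tmem119, Siglech, Gpr34 and P2ry13, genes of resident microglia. Cells with at least 10 of every 10000 UMIs from these 5 genes are called microglia here and cells below that macrophages. The light-damaged library held 149 dividing and 5372 non-dividing microglia, and 89 dividing and 1189 non-dividing macrophages. In the control library there were 10 dividing and 3657 non-dividing microglia, and 3 dividing and 278 non-dividing macrophages. The 7 cycle genes and the 5 class genes chose the cells, so their levels, and those of every gene that goes with them, are given as a description.

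Both groups were male CB6F1 mice aged 8 months with the Cx3cr1-YFP reporter, which makes cells that use the fractalkine receptor gene fluorescent. Mice of the light-damaged group, LD, were kept in the dark overnight and then spent 4 h under LED light of 10 klux with dilated pupils, followed by 5 days of recovery. Mice of the control group, ctrl, had no light damage; whether they had the dark adaptation and the eye drops cannot be read from the labels, whose treatment text stands on both samples. Each group was 1 pool of retinas from 5 to 8 mice, sorted for live YFP-positive cells and made into 1 library, so group and library cannot be told apart and no difference has a replicate check. All intervals are exact 95% intervals that cover counting error only.

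Resident microglia renew themselves by slow local division and can multiply in place after injury, while monocyte-derived macrophages enter from the blood. A cell that divides first copies its DNA in S phase, using replication enzymes and nucleotide synthesis, and then separates the copies in mitosis, using cyclin B, kinesins, the kinetochore and condensins. Many S phase genes are driven by E2F factors once cyclin-dependent kinases release the pocket proteins. Many mitosis genes are held back in resting cells by the DREAM complex, which acts through a promoter element called CHR, often together with CCAAT boxes bound by NF-Y.

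The 100 bases before the start of 5 of these genes show the elements in the letters themselves. They come from RefSeq on GRCm38.p6 and are printed 5′ to 3′ on the strand of the gene. In the first 3, from cycle genes of the rule, capitals mark TTTGAA or its reverse complement TTCAAA, the core of CHR. In the last 2, from replication genes, capitals mark an E2F sequence, TTTGGCGC or TTTCCCGC.
Top2a, minus strand, chr11:99024190-99024289: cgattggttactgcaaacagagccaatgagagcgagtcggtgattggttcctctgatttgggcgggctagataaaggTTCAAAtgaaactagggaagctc
Cdk1, minus strand, chr10:69352913-69353012: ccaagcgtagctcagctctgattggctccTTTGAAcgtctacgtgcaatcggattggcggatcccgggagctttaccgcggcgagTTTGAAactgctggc
Ube2c, plus strand, chr2:164769829-164769928: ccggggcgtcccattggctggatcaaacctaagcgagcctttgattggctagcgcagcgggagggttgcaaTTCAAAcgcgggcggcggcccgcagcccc
Mcm6, minus strand, chr1:128359706-128359805: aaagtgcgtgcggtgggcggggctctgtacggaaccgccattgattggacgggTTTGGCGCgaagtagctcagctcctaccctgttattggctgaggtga
Hells, plus strand, chr19:38930890-38930989: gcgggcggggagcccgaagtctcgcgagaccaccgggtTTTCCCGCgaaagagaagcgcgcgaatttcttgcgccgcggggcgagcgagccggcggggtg
The CHR core began 23 bases before the start in Top2a, 15 in Cdk1 (its nearer copy) and 29 in Ube2c. Motifs were then searched on both strands in 300 bases, 250 before and 50 after the start: TTTGAA for CHR, CCAAT for the CCAAT box, and TTTCCCGC or TTTGGCGC for E2F; no motif contains another. Of 75 genes listed for mitosis, 60 had a promoter in the table and 38 of those (63.3%) held a CHR core. The core stood in 4 of 32 matched replication promoters of 42 listed (12.5%) and in 18.1% of all 27025 promoters. E2F sequences stood in 9 of 32 replication promoters (28.1%), 5 of 60 mitosis promoters (8.33%) and 1.63% of all promoters. In the 100 bases before the start alone, the window printed above, CHR cores stood in 10 of 60 mitosis promoters (16.7%), 2 of 32 replication promoters (6.25%) and 5.91% of all. There the E2F sequences stood in 2 of 32 replication promoters (6.25%), 3 of 60 mitosis promoters (5%) and 0.588% of all. The printed promoters were picked because they hold a motif in that window, and Mcm6 and Hells are the 2 replication promoters that do. In the whole 300 bases CCAAT stood in 71.7% of mitosis promoters, 59.4% of replication promoters and 37.9% of all. A match is a description of the letters and shows neither binding nor a cause.

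The LD library held 6821 barcodes and ctrl 4003, of which 6799 and 3948 passed a minimum of 300 genes and a maximum of 10% mitochondrial UMIs. The median barcode held 7351 UMIs in LD and 4846 in ctrl. The libraries shared 47 barcode sequences, 3 of which belonged to dividing LD cells.

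Dividing cells made up 2.70% of LD microglia (149 of 5521, interval 2.29 to 3.16%) and 0.273% of ctrl microglia (10 of 3667, 0.131 to 0.501%). Among microglia the LD share was 9.90 times the ctrl share (5.23 to 21.1). Among macrophages, 6.96% of LD cells were dividing (89 of 1278, 5.63 to 8.50%), against 1.07% of ctrl cells (3 of 281, 0.221 to 3.09%), a ratio of 6.52 (2.16 to 32.2). The LD and ctrl intervals did not overlap in either class. The cells called macrophages differed between LD and ctrl in markers of other cell types, with values given below, so their ratio does not compare like with like. Within LD, macrophages were called dividing more often than microglia, with a share 2.58 times as high (1.96 to 3.38). That ratio depended on the class threshold. At a threshold of 20 the shares were 7.74% of LD macrophages and 1.55% of LD microglia, a ratio of 5.01, and at a threshold of 5 they were 6.84% and 3.11%, a ratio of 2.20. Dividing LD microglia held a lower share of the class genes than non-dividing ones, with values given below, and the part of this in the ratio was not tested. Macrophages formed 37.4% of dividing LD cells (31.2 to 43.9%), against 18.1% of non-dividing LD cells.

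**Figure D1:**
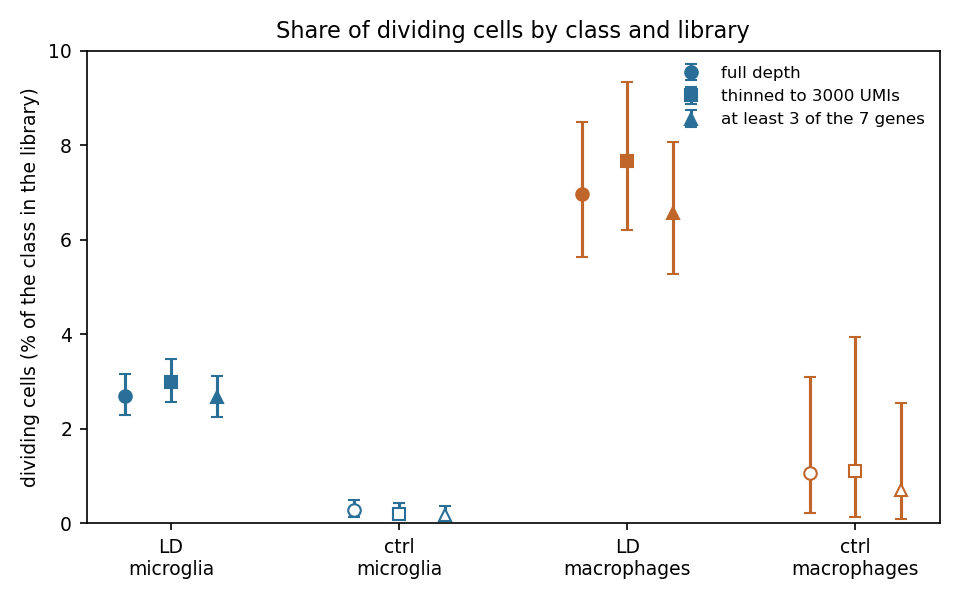
Share of cells called dividing, in percent, in LD and ctrl microglia and macrophages. Bars are exact 95% intervals for counting error of 1 library each; LD microglia stand at 2.70% and ctrl microglia at 0.273%, LD macrophages at 6.96% and ctrl macrophages at 1.07%.

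The ctrl cells were shallower, so the shares were also taken after each cell was thinned to 3000 UMIs, which left out 705 ctrl cells and 0 LD cells. At that fixed depth 2.99% of LD microglia and 0.196% of ctrl microglia were dividing, a ratio of 15.2 (6.86 to 42.1). For macrophages the thinned shares were 7.67% in LD and 1.10% in ctrl, a ratio of 6.94 (1.87 to 58.2). Asking for UMIs of at least 3 of the 7 genes kept 147 of the 149 LD microglia and 84 of the 89 LD macrophages, but 6 of the 10 ctrl microglia and 2 of the 3 ctrl macrophages. By that stricter count the LD share of microglia was 16.3 times the ctrl share (7.30 to 45.1).

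The 13 dividing ctrl cells were a mixed set. Among the 10 microglia, 4 reached the threshold on a single gene, with 1, 3, 4 and 5 UMIs, and the mitosis list made up at most 6.19 of every 10000 UMIs in them. Another 3 carried 235, 248 and 255 mitosis UMIs per 10000, above the highest value among dividing LD microglia, 223. In 2 more the replication list led, at 115 and 101 per 10000, and the tenth had 99.9 mitosis UMIs per 10000. Of the 3 ctrl macrophages, 1 carried 480 per 10000 UMIs of rod photoreceptor genes and passed on 2 UMIs of 1 gene. Another carried 144 per 10000 of perivascular macrophage genes, while the third had 22 UMIs of the cycle genes and 64.9 mitosis UMIs per 10000. When cells rich in perivascular, vascular or rod markers were left out, an alternative chosen after seeing the data, 0 dividing ctrl macrophages were left. The ctrl macrophage share rests on these 3 cells. The non-dividing macrophages it is set against also differed between the libraries. At least 5 perivascular UMIs per 10000 stood in 48.9% of them in ctrl and 16.8% in LD. For rod genes the shares at that level were 57.6% and 5.30%, and for lesion macrophage markers 45.3% and 89.2%, in the same order. The part of this difference in the LD to ctrl ratio of macrophages was not tested.

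Dividing LD cells gave more UMIs. They held a median of 17237 UMIs against 6957 in non-dividing LD microglia, 2.48 times as many, and 18227 against 9522 in LD macrophages, 1.91 times as many. The median number of genes seen was 3932 in dividing and 2099 in non-dividing LD microglia, and 3835 and 2266 in the same groups of LD macrophages. Mitochondrial UMIs were at a median of 2.83% in dividing and 2.56% in non-dividing LD microglia, and at 2.30% and 1.98% in LD macrophages. In ctrl, dividing microglia held a median of 5157 UMIs and non-dividing ones 4851. Levels below are CPM, a gene's summed UMIs per 1000000 UMIs of the group, so a gene can have a lower CPM in dividing cells while each cell holds as many of its UMIs or more; where this matters UMIs per cell are given too. Depth moves with the state of the cells, so each ratio was also taken against non-dividing LD cells within the interquartile depth range of the dividing cells, 411 microglia and 316 macrophages. All dividing cells stayed in, and the medians were 17237 UMIs in dividing against 15510 in these non-dividing microglia, and 18227 against 15019 in macrophages, close but not the same. Ratios against these cells are called at similar depth. A further set, called at similar class level and chosen after seeing the data, had non-dividing cells within the interquartile range of the class genes of the dividing cells, 984 microglia and 453 macrophages, whose median depths were 7795 and 10105 UMIs. Among the named genes, 48 microglial and 16 macrophage ratios moved by over 1.5 times at similar depth, 38 and 14 of them toward no difference.

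The rule's threshold cut through a thin tail. The 7 cycle genes were at 5 to 7.5 per 10000 UMIs in 22 LD cells, just inside it, and at 2.5 to 5 in 130 LD cells, just outside it. Cells just inside had a median of 19.9 mitosis UMIs per 10000 and those just outside 6.01. Most dividing LD cells stood well above it, with 134 of 238 at 20 or more and a median of 102 mitosis UMIs per 10000. The median dividing LD microglia had UMIs of 7 of the 7 genes and a summed level of 26.5 per 10000, and the median dividing LD macrophage UMIs of 6 and a level of 19.6.

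Top2a, the topoisomerase that untangles replicated DNA, was at 536 CPM in dividing and 3.18 CPM in non-dividing LD microglia. Its level was 344 CPM in dividing and 6.30 CPM in non-dividing LD macrophages. Birc5, the survivin subunit of the complex that corrects chromosome attachment, was at 499 against 2.75 CPM (ratio 182, 150.1 to 222) in LD microglia and at 450.4 against 5.32 CPM (ratio 84.7, 65.7 to 111) in LD macrophages. Ccna2, the cyclin of S and G2 phase, was at 235 against 0.843 CPM (ratio 279, 198 to 404) and 189 against 0.737 CPM (ratio 256, 133 to 566) in the same order. Mki67, the proliferation marker Ki-67 that coats mitotic chromosomes, was at 275 against 2.10 CPM (ratio 131, 105 to 166) in microglia and 216 against 9.41 CPM (ratio 22.9, 18.5 to 28.5) in macrophages. These genes chose the cells and their ratios follow from the rule. Each of the 7 was below 10 CPM in the non-dividing LD cells of both classes.

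Outside the rule, the mitosis list summed to 8713 CPM in dividing and 265 CPM in non-dividing LD microglia, and to 6809 and 369 CPM in LD macrophages. The DNA replication list summed to 4017 CPM in dividing and 408 CPM in non-dividing LD microglia, and to 3026 and 559 CPM in LD macrophages. Per cell, dividing LD microglia had a median of 86.8 mitosis and 36.5 replication UMIs per 10000, and dividing LD macrophages 62.5 and 19.0. Replication UMIs outnumbered mitosis UMIs in 34 of 149 dividing LD microglia (22.8%, 16.3 to 30.4%) and in 23 of 89 dividing LD macrophages (25.8%, 17.1 to 36.2%), so the intervals of the classes overlapped. Mitosis UMIs reached 100 per 10000 in 59 of the microglia (39.6%) and in 19 of the macrophages (21.3%). Likewise replication UMIs reached 50 per 10000 in 55 (36.9%) and 23 (25.8%). The rule leaned on genes of late S phase, G2 and mitosis, and a few cells it left out carried S phase genes: 8 of 5372 non-dividing LD microglia and 6 of 1189 non-dividing LD macrophages had at least 50 replication UMIs per 10000.

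**Figure D2:**
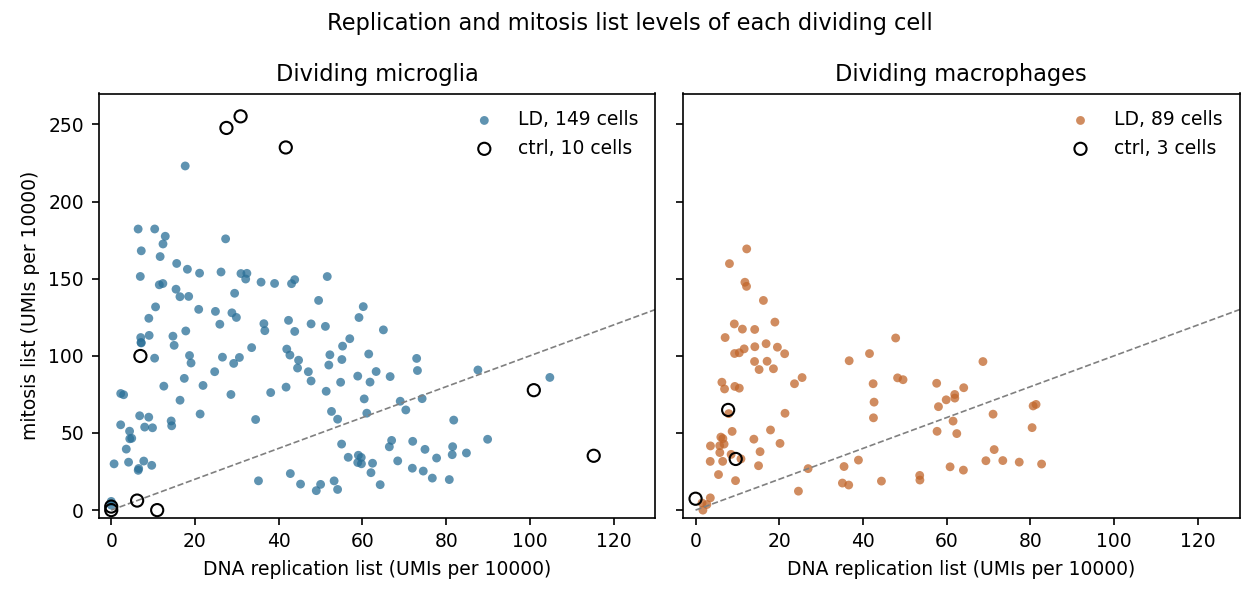
Summed UMIs per 10000 of the DNA replication list (horizontal axis) and of the mitosis list (vertical axis) in each dividing cell, with LD and ctrl cells marked apart and a dashed line of equal level. Cells spread along both axes, with a median of 86.8 mitosis and 36.5 replication UMIs per 10000 in LD microglia and of 62.5 and 19.0 in LD macrophages.

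Over the whole transcriptome, 5145 genes had a mean level of at least 20 CPM over dividing and non-dividing LD microglia. Of these, 1225 were over 1.5 times higher in dividing cells (23.8%) and 508 over 1.5 times lower (9.87%). In LD macrophages 950 of 4827 were higher (19.7%) and 518 lower (10.7%). With median-ratio scaling in place of CPM the split was 985 higher and 761 lower in microglia and 675 and 756 in macrophages. This scaling moves every log2 ratio down by the median of all genes, 0.13 in microglia and 0.14 in macrophages, against which the list medians below may be read. Only 121 and 110 of the higher genes stood on the lists for replication, mitosis and chromatin. Of the 4514 genes measured in both classes, 1096 were higher in microglia and 899 in macrophages. Of these, 751 were higher in both, which is 68.5% of those higher in microglia and 83.5% of those higher in macrophages. Likewise 400 were lower in microglia and 424 in macrophages, with 213 lower in both, 53.3% and 50.2% of the lower genes. The classes share the threshold of the cycle rule and the library, so this overlap is not independent.

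Genes of DNA replication were higher together. Of the 42 genes listed, 31 reached a mean of 20 CPM in LD microglia and 31 of those were over 1.5 times higher in dividing cells, with a median log2 ratio of 3.27. In LD macrophages 28 reached it and 27 were higher, with a median of 2.31. Genes near 0 in resting cells reached that level through the dividing group and had to differ, so these counts describe the cells and support nothing. Tk1, the thymidine kinase of S phase, was at 283 against 4.07 CPM (ratio 69.5, 58.8 to 82.6) in microglia and 162 against 9.49 CPM (ratio 17.0, 13.6 to 21.4) in macrophages. The PCNA-associated factor Pclaf, listed in the files as 2810417H13Rik, was at 569 against 4.24 CPM (ratio 134, 115 to 158) in microglia and 483 against 11.5 CPM (ratio 41.9, 35.0 to 50.4) in macrophages. Pcna itself, the sliding clamp of the polymerases, had lower ratios and a measurable level in non-dividing cells, at 210.1 against 32.1 CPM (ratio 6.55, 5.92 to 7.23) in microglia and 140.5 against 50.7 CPM (ratio 2.77, 2.37 to 3.23) in macrophages. Among subunits of the replicative helicase, Mcm5 was at 139 against 12.2 CPM (ratio 11.4, 9.98 to 13.1) in microglia and 109.6 against 20.7 CPM (ratio 5.29, 4.35 to 6.43) in macrophages, and Mcm6, whose promoter is printed above, at 126 against 14.6 CPM (ratio 8.62, 7.53 to 9.86) and 106 against 26.6 CPM (ratio 3.98, 3.30 to 4.80). Thymidylate synthase Tyms and ribonucleotide reductase subunit Rrm1, which supply deoxynucleotides, had microglial ratios of 20.4 and 15.3 and macrophage ratios of 12.9 and 11.1. Set against cells of similar depth, the microglial ratios were lower, at 31.7 for Tk1, 63.6 for Pclaf, 5.08 for Mcm5 and 4.14 for Mcm6. Uhrf1, which carries DNA methylation over to the new strand, was at 73.3 against 3.23 CPM (ratio 22.7, 18.2 to 28.5) in microglia and 44.8 against 5.65 CPM (ratio 7.93, 5.64 to 11.2) in macrophages. In microglia its log2 ratio was 4.51 over all non-dividing cells and 3.40 at similar depth.

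Most mitosis genes were at low levels outside the dividing cells. Of 75 genes listed, 63 reached 20 CPM in LD microglia and 63 were over 1.5 times higher (median log2 6.15), and 56 of 56 in LD macrophages (5.30). As for replication, most of these genes reached 20 CPM through the dividing group and had to differ, so the counts support nothing. At similar depth the microglial medians were 5.42 for mitosis and 2.47 for replication. Plk1, a kinase that drives mitotic entry, was at 127 against 0.675 CPM (ratio 188, 128 to 287) in microglia and 95.1 against 0.655 CPM (ratio 145, 71.9 to 342) in macrophages. Cdc20, which activates the complex that destroys cyclin B, was at 193 against 2.0 CPM (ratio 96.4, 76.3 to 123) and 191 against 2.13 CPM (ratio 89.9, 60.2 to 139.8). Ccnb1, cyclin B itself, was at 174 against 1.66 CPM (ratio 104, 81.0 to 136) in microglia and 163 against 1.80 CPM (ratio 90.8, 58.7 to 147) in macrophages. Prc1, which bundles microtubules at the middle of the dividing cell, was at 194 against 0.771 CPM (ratio 251, 176 to 371) and 153 against 0.900 CPM (ratio 169, 93.1 to 344). Pttg1, securin, had smaller ratios, at 178 against 36.3 CPM (ratio 4.91, 4.43 to 5.45) in microglia and 179 against 48.8 CPM (ratio 3.66, 3.17 to 4.22) in macrophages. Cks2, a small partner of the cyclin-dependent kinases, was also present in resting cells, at 349 against 24.2 CPM (ratio 14.4, 13.2 to 15.8) and 279.7 against 41.1 CPM (ratio 6.81, 5.99 to 7.74).

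The chromatin, nucleus and tubulin list was higher in 27 of 27 measured genes in both classes, with medians of 2.88 and 2.29. Only 17 of the 28 listed genes had a mean of at least 20 CPM over non-dividing LD microglia and macrophages. Some of the 27 therefore reached that level through the dividing group and had to differ, so these counts support nothing. The histone variant H2afz stood at 2588 against 413 CPM (ratio 6.27, 6.09 to 6.44) in microglia and 2631 against 612 CPM (ratio 4.30, 4.14 to 4.46) in macrophages. Hmgb2, a chromatin protein of cycling cells, was at 1297 against 65.1 CPM (ratio 19.9, 19.0 to 21.0) and 1465 against 114 CPM (ratio 12.9, 12.1 to 13.8). Stmn1, stathmin, which loosens microtubules, was at 1084 against 40.7 CPM (ratio 26.6, 25.1 to 28.3) in microglia and 926 against 75.5 CPM (ratio 12.3, 11.3 to 13.3) in macrophages. In microglia its log2 ratio was 4.73 over all non-dividing cells and 3.70 at similar depth. Tuba1b, a main alpha-tubulin, was at 3038 against 434 CPM (ratio 6.997, 6.82 to 7.18) and 2307 against 367 CPM (ratio 6.28, 6.02 to 6.56). Near-identical tubulin and replication-dependent histone genes can share reads, so their levels are uncertain one by one.

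Cyclins, cyclin-dependent kinases and their brakes outside the core cycle went both ways: of 16 measured genes 5 were over 1.5 times higher and 2 lower in dividing LD microglia, and 7 higher and 4 lower in LD macrophages. Over all genes 23.8% were higher and 9.87% lower in microglia, and 19.7% and 10.7% in macrophages. The highest ratios of those named here belonged to inhibitors of the INK4 family, which bind Cdk4 and Cdk6. Cdkn2c was at 183 against 13.9 CPM (ratio 13.2, 11.7 to 14.9) in microglia and 109.6 against 12.8 CPM (ratio 8.58, 6.89 to 10.7) in macrophages, and Cdkn2d at 175 against 21.0 CPM (ratio 8.32, 7.42 to 9.31) and 125 against 20.8 CPM (ratio 5.999, 4.97 to 7.24). Cdk4 was at 223 against 97.7 CPM (ratio 2.28, 2.09 to 2.49) in microglia and 241 against 130.4 CPM (ratio 1.85, 1.65 to 2.06) in macrophages, while Ccnd3, cyclin D3, was at 55.7 against 27.3 CPM (ratio 2.04, 1.71 to 2.42) and 52.7 against 21.4 CPM (ratio 2.46, 1.90 to 3.14). Ccnd1, cyclin D1, differed little, at 103 against 114 CPM (ratio 0.902, 0.797 to 1.02) in microglia and 105 against 88.1 CPM (ratio 1.20, 1.01 to 1.41) in macrophages. Cdkn1a, the p53 target p21, was at 152 against 152 CPM (ratio 0.999, 0.902 to 1.10) in microglia and 101 against 356 CPM (ratio 0.282, 0.240 to 0.330) in macrophages. Its microglial log2 ratio was -0.84 at similar class level, over 1.5 times lower. The antiproliferative genes Btg1 and Btg2 were lower in both, with microglial ratios of 0.461 and 0.473 and macrophage ratios of 0.391 and 0.497.

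Among genes on no cycle list, several with the highest ratios are also known from dividing cells. Lockd, a noncoding RNA downstream of Cdkn1b, was at 115 against 1.20 CPM (ratio 95.8, 70.9 to 132) in microglia and 81.7 against 2.05 CPM (ratio 39.9, 25.9 to 63.9) in macrophages. Gmnn, geminin, which stops DNA from being copied more than once, was at 112 against 9.64 CPM (ratio 11.6, 9.98 to 13.5) and 98.1 against 19.8 CPM (ratio 4.95, 4.03 to 6.07). Tagln2, an actin-binding protein, was at 496 against 78.8 CPM (ratio 6.30, 5.91 to 6.71) in microglia and 614 against 179.6 CPM (ratio 3.42, 3.17 to 3.68) in macrophages. Lepr, the leptin receptor, was at 162 against 22.7 CPM (ratio 7.16, 6.03 to 8.50) in macrophages and at 55.7 against 49.8 CPM (ratio 1.12, 0.941 to 1.32) in microglia. Its microglial log2 ratio was -1.46 at a class threshold of 20. The gene's UMIs came from 17 of the 89 dividing macrophages, with 22.4% of them in 1 cell.

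Genes that supply building blocks for growth were higher too. Of the nucleotide and one-carbon synthesis list, 11 of 11 measured genes were over 1.5 times higher in dividing LD microglia (median log2 1.17) and 9 of 10 in macrophages (1.07). Over all genes 23.8% were higher in microglia and 19.7% in macrophages. Some listed genes, such as Psat1, were below 20 CPM in non-dividing cells, reached that mean through the dividing group and had to differ. The counts describe the cells. Psat1, an enzyme of serine synthesis, was at 90.3 against 14.6 CPM (ratio 6.20, 5.33 to 7.21) in microglia and 60.5 against 18.8 CPM (ratio 3.22, 2.52 to 4.08) in macrophages. Its microglial ratio at similar depth was 3.11. Shmt2, which passes the serine carbon to folate in mitochondria, was at 70.8 against 20.3 CPM (ratio 3.49, 2.97 to 4.09) and 55.7 against 17.7 CPM (ratio 3.15, 2.44 to 4.04). Paics, an enzyme of purine synthesis, was at 119 against 53.9 CPM (ratio 2.21, 1.96 to 2.48) in microglia and 107 against 48.0 CPM (ratio 2.23, 1.87 to 2.64) in macrophages.

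Glycolysis genes split. Of 11 measured, 6 were higher and 2 lower in each class, with medians of 1.10 in microglia and 0.62 in macrophages. The shares over all genes were 23.8% higher and 9.87% lower in microglia, and 19.7% and 10.7% in macrophages. They also apply to the oxidative phosphorylation and ribosome lists below. Gapdh, the triose oxidizing enzyme, was at 2379 against 921 CPM (ratio 2.58, 2.52 to 2.65) in microglia and 2224 against 1219 CPM (ratio 1.82, 1.76 to 1.89) in macrophages, and Ldha, lactate dehydrogenase A, at 661 against 281 CPM (ratio 2.35, 2.24 to 2.47) and 647 against 351 CPM (ratio 1.85, 1.72 to 1.97). At similar depth the microglial ratio of Gapdh was 1.66. The lower pair stood at the pathway's entrance: Hk2, hexokinase, was at 73.7 against 154 CPM (ratio 0.478, 0.413 to 0.550) in microglia and 48.4 against 81.9 CPM (ratio 0.591, 0.465 to 0.743) in macrophages, and Slc2a1, the glucose transporter GLUT1, at 19.9 against 30.9 CPM (ratio 0.644, 0.481 to 0.846) and 26.0 against 50.9 CPM (ratio 0.511, 0.366 to 0.697). The log2 ratio of Slc2a1 at similar depth was -0.29 in both classes, inside 1.5 times. Nuclear genes of oxidative phosphorylation were higher in 11 of 16 in microglia (median 0.71) and 8 of 16 in macrophages (0.62), with none lower. Cox5a of complex IV was at 459.6 against 196 CPM (ratio 2.35, 2.21 to 2.49) in microglia and 621 against 325 CPM (ratio 1.91, 1.78 to 2.05) in macrophages. The ribosome biogenesis list moved least of these, with 6 and 7 of 16 genes higher, none lower, and medians of 0.37 and 0.41. Eif5a, a translation factor, was at 829 against 384 CPM (ratio 2.16, 2.06 to 2.26) in microglia and 918 against 459 CPM (ratio 1.999, 1.89 to 2.12) in macrophages.

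The cytoskeleton and migration list was higher in 11 of 14 measured genes in LD microglia (median 0.94), and in 8 of 16 with 1 lower in LD macrophages (0.57). Over all genes 23.8% were higher in microglia and 19.7% in macrophages. Vim, the intermediate filament vimentin, was at 356 against 87.4 CPM (ratio 4.07, 3.79 to 4.37) in microglia and 638 against 529.6 CPM (ratio 1.20, 1.13 to 1.28) in macrophages. Lgals1, galectin-1, was at 604 against 212 CPM (ratio 2.85, 2.70 to 3.0) and 1484 against 1023 CPM (ratio 1.45, 1.39 to 1.52). In microglia at similar depth the log2 ratio of Lgals1 was 0.33, inside 1.5 times, and that of Vim 0.94. Non-dividing macrophages held more of both genes than non-dividing microglia.

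**Figure D3:**
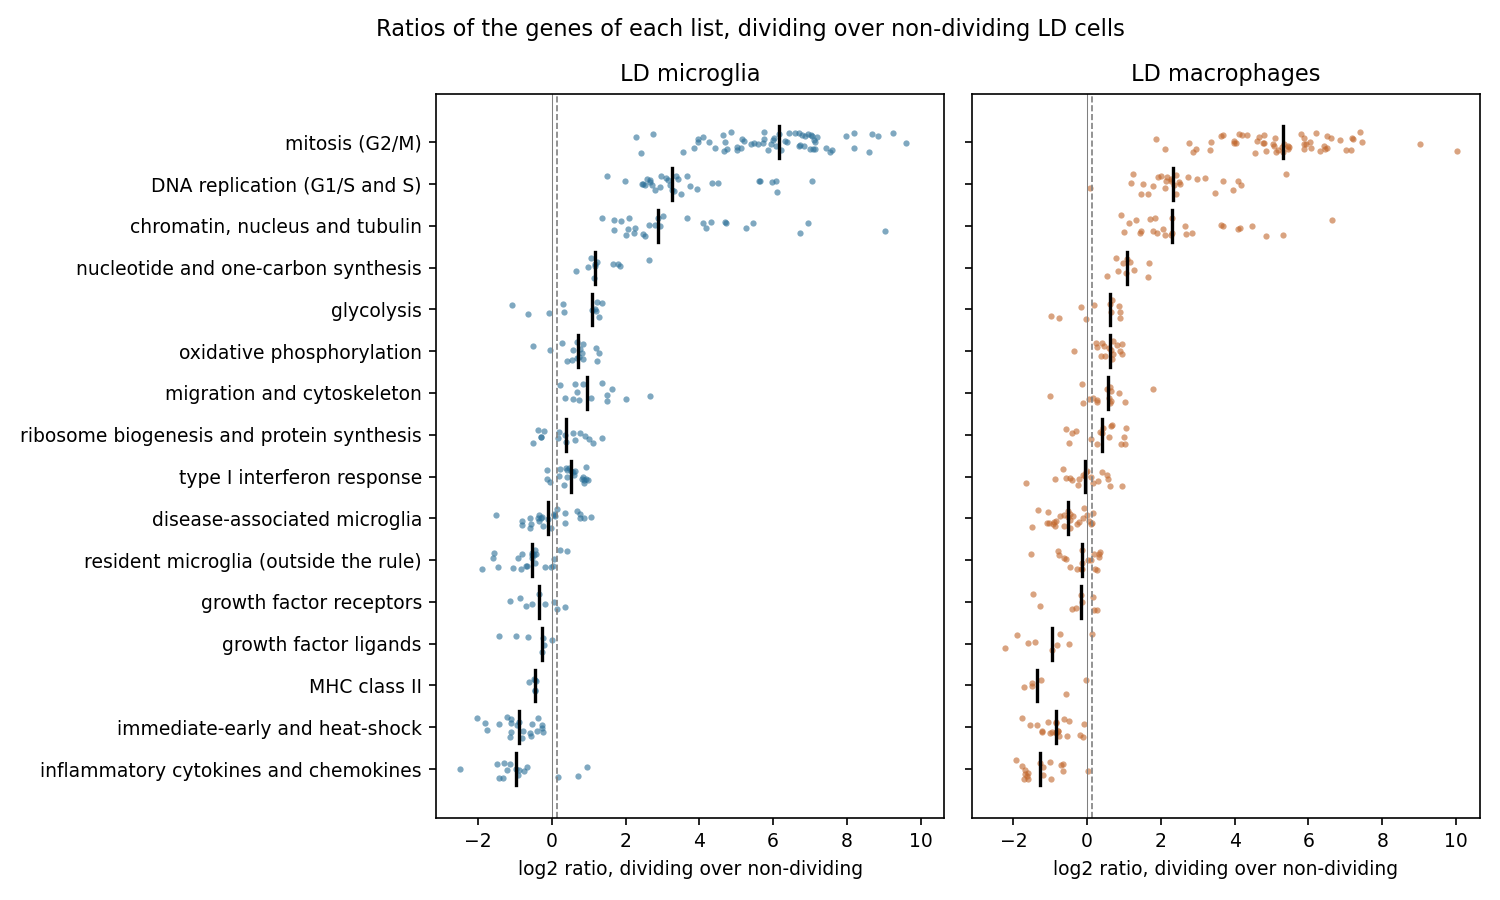
Log2 ratios of CPM, dividing over non-dividing LD cells, for the measured genes of each list in microglia and macrophages, with a black bar at each list's median and a dashed line at the median of all genes. Mitosis genes sit highest with medians of 6.15 and 5.30, and the medians of the inflammatory list are below 0, at -0.97 and -1.27.

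Inflammatory cytokine and chemokine genes were lower in dividing cells of both classes. Of 15 measured in LD microglia, 12 were over 1.5 times lower and 2 higher, with a median log2 ratio of -0.97. In LD macrophages 16 of 17 were lower and 0 higher, with a median of -1.27. Over all genes 9.87% were lower in microglia and 10.7% in macrophages. Il1b, interleukin 1 beta, was at 99.5 against 269 CPM (ratio 0.369, 0.326 to 0.417) in microglia and 486 against 1469.6 CPM (ratio 0.331, 0.308 to 0.355) in macrophages. Tnf was at 107 against 202 CPM (ratio 0.530, 0.470 to 0.596) and 108 against 409 CPM (ratio 0.263, 0.225 to 0.306). The chemokine Ccl4 was at 944 against 2191 CPM (ratio 0.431, 0.414 to 0.448) in microglia and 1298 against 4158 CPM (ratio 0.312, 0.299 to 0.326) in macrophages, and Cxcl2, which attracts neutrophils, at 149 against 324 CPM (ratio 0.458, 0.414 to 0.506) and 1239.9 against 3858 CPM (ratio 0.321, 0.307 to 0.336). Cd83, an activation marker, was at 194 against 543 CPM (ratio 0.356, 0.326 to 0.389) and 245 against 785 CPM (ratio 0.312, 0.282 to 0.345).

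Counted per cell the picture was different in microglia. Dividing LD microglia held a mean of 1.81 Il1b UMIs per cell and non-dividing ones 2.08, 1.95 and 1.56 UMIs of Tnf, and 17.2 and 16.9 UMIs of Ccl4. In LD macrophages the means were lower in dividing cells per cell too, at 9.02 Il1b UMIs against 15.1, 2.0 Tnf UMIs against 4.21 and 24.1 Ccl4 UMIs against 42.7. At similar depth the list's median log2 ratio was -0.89 in microglia and -0.94 in macrophages, and at similar class level -2.13 in microglia. The chemokine Ccl5 rested on few cells. It had ratios of 0.177 in microglia and 0.609 in macrophages, with 38.02% and 64.8% of its dividing UMIs in 1 cell, and its macrophage log2 ratio was 0.076 at a class threshold of 5.

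Immediate-early and heat-shock genes, which are also switched on when tissue is broken up with enzymes, were lower as well: 14 of 21 in LD microglia (median -0.88) and 16 of 21 in LD macrophages (-0.84), none higher. The shares of all genes that were lower were 9.87% and 10.7%. Hspa1a, an inducible HSP70, was at 2197 against 7635 CPM (ratio 0.288, 0.280 to 0.295) in microglia and 3533 against 6400.2 CPM (ratio 0.552, 0.537 to 0.567) in macrophages. Jun was at 659 against 1761 CPM (ratio 0.374, 0.357 to 0.392) and 689.6 against 1242 CPM (ratio 0.555, 0.522 to 0.590). Dnajb1, a partner of HSP70, was at 90.7 against 371 CPM (ratio 0.244, 0.214 to 0.277) in microglia and 152 against 519 CPM (ratio 0.293, 0.257 to 0.332) in macrophages. Atf3, a stress transcription factor, was at 195 against 449 CPM (ratio 0.434, 0.397 to 0.473) and 234 against 687 CPM (ratio 0.340, 0.306 to 0.377). Per cell, Hspa1a gave 40.0 UMIs in dividing and 59.0 in non-dividing LD microglia, and 65.6 and 65.8 in LD macrophages. At similar depth the macrophage log2 ratios of Hspa1a and Jun were -0.37 and -0.51, inside 1.5 times, and the list's medians -0.49 in microglia and -0.44 in macrophages. The part of this response in the lower inflammatory levels was not tested. Outside the lists, Hmox1, the haem-degrading enzyme, was at 169.9 against 534 CPM (ratio 0.318, 0.290 to 0.349) in microglia and 188 against 695 CPM (ratio 0.271, 0.241 to 0.303) in macrophages.

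Growth factor ligands were lower in 3 of 7 measured genes in LD microglia (median -0.27) and 7 of 9 in LD macrophages (-0.95), with none higher. Over all genes 9.87% were lower in microglia and 10.7% in macrophages. Il1b, given above among the inflammatory genes, is counted here too, so these counts are not independent of those. Hbegf, a ligand of the EGF receptor, was at 18.2 against 84.6 CPM (ratio 0.215, 0.144 to 0.308) in macrophages and 58.6 against 69.2 CPM (ratio 0.847, 0.717 to 0.994) in microglia. Osm, oncostatin M, was at 39.1 against 76.5 CPM (ratio 0.510, 0.417 to 0.619) in microglia and 68.4 against 182 CPM (ratio 0.377, 0.309 to 0.455) in macrophages. Of 9 receptors measured in each class, 3 were lower in microglia (median -0.35) and 2 in macrophages (-0.15), against the same 9.87% and 10.7% of all genes. Csf1r, the receptor for the survival factors CSF1 and IL-34, was at 1693 against 2474 CPM (ratio 0.684, 0.664 to 0.705) in microglia, just inside 1.5 times, and 706 against 781 CPM (ratio 0.904, 0.850 to 0.961) in macrophages; per cell it gave 30.8 UMIs in dividing and 19.1 in non-dividing LD microglia. Mertk, a receptor for dying cells, was at 41.7 against 91.0 CPM (ratio 0.458, 0.376 to 0.552) and 12.1 against 29.6 CPM (ratio 0.409, 0.247 to 0.641).

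Of 21 type I interferon response genes measured in LD microglia, 9 were higher in dividing cells and 0 lower, with a median log2 ratio of 0.51, against 23.8% and 9.87% of all genes. In LD macrophages 2 of 20 were higher and 3 lower, with a median of -0.05, against 19.7% and 10.7% of all genes. Ifi27l2a was higher in both, at 2437 against 1333 CPM (ratio 1.83, 1.78 to 1.87) in microglia and 2054 against 1342 CPM (ratio 1.53, 1.47 to 1.59) in macrophages. Ifitm3, a membrane protein that blocks virus entry, was at 903 against 472 CPM (ratio 1.91, 1.83 to 1.996) in microglia but 1201 against 1198 CPM (ratio 1.002, 0.956 to 1.05) in macrophages. Cxcl10, a T cell chemokine, was at 272 against 138 CPM (ratio 1.97, 1.82 to 2.12) in microglia and 318 against 166 CPM (ratio 1.92, 1.74 to 2.12) in macrophages, where its log2 ratio was -0.30 at a class threshold of 5. In microglia at similar depth the median was 0.24, and Ifi27l2a and Ifitm3 had log2 ratios of 0.42 and 0.38, inside 1.5 times, while Cxcl10 had 0.01 at similar class level. The difference between the classes has no test.

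Of the 4514 genes measured in both classes, 10 (0.222%) passed 1.5 times in opposite directions, and 9 of those were higher in dividing microglia and lower in dividing macrophages. These genes were chosen after their values were seen. They include Ccl2 and Ccl12, which attract monocytes. Ccl2 was at 245 against 126 CPM (ratio 1.95, 1.80 to 2.11) in microglia and 357 against 561 CPM (ratio 0.635, 0.583 to 0.691) in macrophages, and Ccl12 at 993 against 605 CPM (ratio 1.64, 1.58 to 1.71) and 282 against 681 CPM (ratio 0.414, 0.377 to 0.455). Lgals3, galectin-3 of phagocytes, was at 150.4 against 87.8 CPM (ratio 1.71, 1.54 to 1.90) in microglia and 753 against 1168 CPM (ratio 0.645, 0.608 to 0.683) in macrophages. Lpl, lipoprotein lipase, was at 101 against 62.6 CPM (ratio 1.61, 1.41 to 1.82) and 44.2 against 78.9 CPM (ratio 0.560, 0.435 to 0.711), and Ch25h, which makes 25-hydroxycholesterol, at 29.1 against 15.8 CPM (ratio 1.85, 1.44 to 2.34) and 24.2 against 67.7 CPM (ratio 0.358, 0.254 to 0.491). The others were Cp, Folr2, Ifitm2 and Hgsnat, with Calhm2 going the other way at ratios of 0.625 in microglia and 1.56 in macrophages. These opposite directions depended on the cells that were set against each other. At similar depth the microglial log2 ratios of Lgals3 and Folr2 were -0.56 and -0.20, and those of Lpl and Ch25h 0.05 and 0.02. At similar class level that of Ccl2 was -0.13, and without cells rich in other markers its macrophage log2 ratio was 0.23. Ccl12 had a microglial log2 ratio of 0.46 at a class threshold of 5 and a macrophage one of -0.33 at a threshold of 20.

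**Figure D4:**
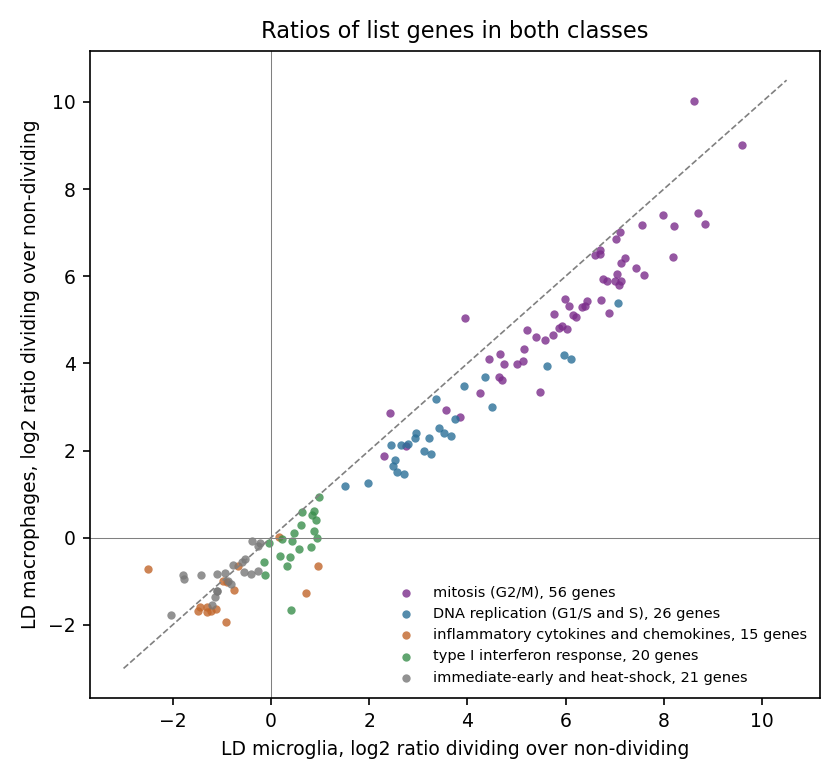
Log2 ratio of each gene, dividing over non-dividing, in LD microglia (horizontal axis) and LD macrophages (vertical axis), with mitosis, replication, inflammatory, interferon and immediate-early genes marked. Mitosis genes stand high in both classes, with medians of 6.15 and 5.30, while interferon genes have a median of 0.51 in microglia and -0.05 in macrophages.

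Genes of the microglial programme had a lower share of UMIs in dividing microglia. The 5 class genes chose the class, yet within it dividing LD microglia held a median of 19.7 of their UMIs per 10000 and non-dividing ones 38.2; non-dividing ctrl microglia held 64.5. Over both classes, 21 of 238 dividing LD cells (8.82%) reached 30 per 10000, against 55.8% of non-dividing LD cells. By the rule all of these are microglia: 21 of 149 dividing and 3662 of 5372 non-dividing ones. The class threshold therefore cut closer to the bulk of the dividing cells: 8 of them lay at 8 to 10 and 20 at 10 to 12. In macrophages the class level did not differ in this way, at a median of 4.64 in dividing and 4.45 in non-dividing cells. P2ry12, the purinergic receptor of surveying microglia, was at 593 against 1213 CPM (ratio 0.489, 0.465 to 0.514) in LD microglia. Counted per cell the order was the other way round: dividing LD microglia held a mean of 36.9 UMIs of the class genes and non-dividing ones 28.6, and 10.8 and 9.37 UMIs of P2ry12.

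**Figure D5:**
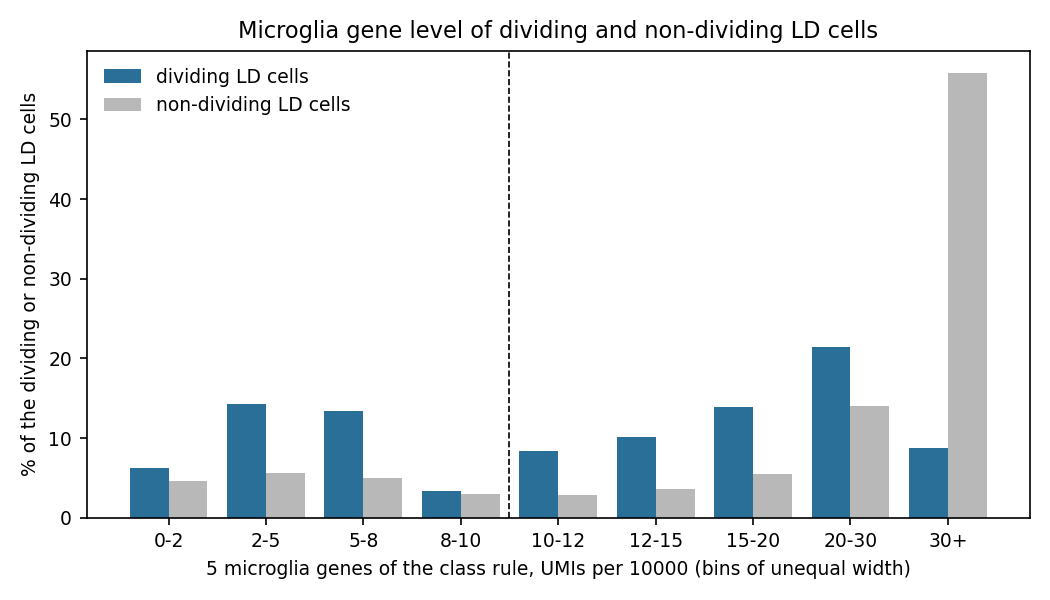
Share of dividing and of non-dividing LD cells, in percent, at each level of the 5 class genes per 10000 UMIs, in bins of unequal width; the dashed line is the class threshold of 10. Dividing cells stand lower: over both classes, 8.82% of dividing and 55.8% of non-dividing LD cells stand at 30 or more. Macrophages, which lie below 10, form 37.4% of dividing and 18.1% of non-dividing LD cells.

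Resident microglia genes outside the rule followed. Of 23 measured in LD microglia, 10 were over 1.5 times lower and 0 higher (median -0.53), and in LD macrophages 4 of 19 (-0.15). Over all genes 9.87% were lower in microglia and 10.7% in macrophages. Cst3, cystatin C, a secreted protease inhibitor, was at 10128 against 27662 CPM (ratio 0.366, 0.362 to 0.371) in microglia and 4610.3 against 6350.0 CPM (ratio 0.726, 0.709 to 0.743) in macrophages. Per cell the list summed to a mean of 708 UMIs in dividing and 526 in non-dividing LD microglia, while Cst3 gave 184 and 214. Adgrg1, an adhesion receptor of resident microglia, was at 46.1 against 171 CPM (ratio 0.269, 0.224 to 0.321), and Crybb1, a crystallin gene used by microglia, at 60.1 against 183 CPM (ratio 0.329, 0.280 to 0.384). Lag3, an immune checkpoint receptor on no list, had the lowest ratio among microglial genes at 50 CPM or more, at 106 against 603 CPM (ratio 0.176, 0.156 to 0.198). Other resident genes were level, such as Olfml3 at 1347 against 1303 CPM (ratio 1.03, 0.999 to 1.07) and Lgmn, a lysosomal protease, at 3814 against 3895 CPM (ratio 0.979, 0.960 to 0.999). At similar class level the class genes' own median log2 ratio was 0.028. The medians of the resident genes were -0.24 at similar depth and -0.16 at similar class level, and Cst3, Lag3 and Adgrg1 had log2 ratios of -0.75, -1.54 and -1.08 at similar depth.

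Disease-associated microglia genes, the set known from degeneration and lipid uptake, went both ways in LD microglia, with 5 of 25 higher and 5 lower (median -0.11), against 23.8% and 9.87% of all genes. In LD macrophages 0 of 27 were higher and 12 lower (-0.51), against 19.7% and 10.7% of all genes. Per cell the order was the other way round. The list summed to a mean of 1615 UMIs in dividing and 1446 in non-dividing LD macrophages, and to 1092 and 549 in LD microglia. Apoe, the lipid carrier, was at 11253 against 17058 CPM (ratio 0.660, 0.652 to 0.667) in microglia and at 30708 against 62996 CPM (ratio 0.487, 0.483 to 0.492) in macrophages. Trem2, the lipid-sensing receptor, was at 1235 against 2167 CPM (ratio 0.570, 0.550 to 0.590) and 916 against 1311 CPM (ratio 0.699, 0.662 to 0.736). Lyz2, lysozyme, was at 2315 against 3003 CPM (ratio 0.771, 0.752 to 0.791) in microglia, with a log2 ratio of -1.05 at similar depth, and 8396 against 17582 CPM (ratio 0.478, 0.469 to 0.486) in macrophages. Spp1, osteopontin, was at 581 against 341 CPM (ratio 1.70, 1.62 to 1.79) in microglia and 3109 against 2990.5 CPM (ratio 1.04, 1.01 to 1.07) in macrophages. The microglial ratio of Spp1 depended on the cells it was set against, with log2 values of -0.51 at similar depth and -0.049 at similar class level. The same held for Lgals3, at -0.56 and -0.12, and for Fabp5, a fatty acid carrier, at 122 against 58.5 CPM (ratio 2.08, 1.85 to 2.34), with -0.26 at similar depth.

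MHC class II genes were lower in dividing macrophages. There 4 of 6 measured were over 1.5 times lower (median -1.36), against 10.7% of all genes. In microglia 1 of 6 was lower (-0.46), against 9.87% of all genes. Cd74, the invariant chain, was at 1728 against 4076 CPM (ratio 0.424, 0.408 to 0.440) in macrophages and 255 against 347 CPM (ratio 0.737, 0.682 to 0.795) in microglia, and H2-Aa at 503 against 1405 CPM (ratio 0.358, 0.333 to 0.384) and 72.2 against 99.5 CPM (ratio 0.726, 0.626 to 0.838). At similar depth their microglial log2 ratios were -1.59 for Cd74 and -1.89 for H2-Aa, over 1.5 times lower. In dividing microglia 60.7% of H2-Aa UMIs came from 1 cell. Per cell, Cd74 gave 32.1 UMIs in dividing and 41.9 in non-dividing macrophages. At similar depth the median was -0.33 and the log2 ratio of Cd74 -0.27 in macrophages, inside 1.5 times; at similar class level the median was -0.61. In microglia the median at similar depth was -1.47. Of 18 lysosome and phagocytosis genes, 1 was higher and 4 were lower in microglia (median -0.14), against 23.8% and 9.87% of all genes, and 0 were higher and 2 lower in macrophages (-0.19), against 19.7% and 10.7%. Per cell the lysosome list summed to 909 UMIs in dividing and 462 in non-dividing LD microglia, and to 710 and 469 in LD macrophages.

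Markers of monocytes and infiltrating macrophages were higher in 4 of 7 measured in dividing LD microglia (median 0.89, 1 lower), against 23.8% of all genes higher and 9.87% lower. In dividing LD macrophages 4 of 12 of these markers were higher and 2 lower (0.29), against 19.7% and 10.7% of all genes. Their summed level was 998 CPM in dividing and 618 CPM in non-dividing microglia, with ranges over cells of 0 to 57.9 and 0 to 97.5 per 10000, and 2695 and 2509 CPM in macrophages, with ranges of 2.57 to 83.2 and 0 to 98.3. The markers together reached 10 per 10000 UMIs in 43 of 149 dividing and 522 of 5372 non-dividing LD microglia. Set against cells of similar depth, microglia had a median of -0.052, so the direction of this list depended on the cells it was set against. Ccr2, the receptor that lets monocytes leave bone marrow, was at 107 against 56.8 CPM (ratio 1.89, 1.59 to 2.23) in macrophages and near 0 in microglia, at 8.11 against 6.41 CPM (ratio 1.27, 0.780 to 1.96), where its log2 ratio was -0.77 at similar depth and -0.69 at similar class level. Tgfbi, a matrix protein, was at 190.2 against 81.6 CPM (ratio 2.33, 2.12 to 2.56) in microglia, with a log2 ratio of 0.48 at similar depth, and at 766 against 364 CPM (ratio 2.11, 1.98 to 2.24) in macrophages. Fn1, fibronectin, was at 153 against 18.9 CPM (ratio 8.11, 7.18 to 9.14) in microglia, with its UMIs in 54 of 149 dividing cells and 13.3% in 1 of them, and a log2 ratio of 1.62 at similar depth. Ms4a7, a gene of macrophages that are not microglia, was at 64.1 against 91.4 CPM (ratio 0.702, 0.599 to 0.817) in microglia, with a log2 ratio of -1.65 at similar depth, and 358 against 823 CPM (ratio 0.435, 0.399 to 0.472) in macrophages. Lesion macrophage markers were higher in 4 of 6 in microglia (median 0.72, 0 lower) and lower in 4 of 8 in macrophages (-0.60, 0 higher). The shares of all genes are those given above for the monocyte markers. At similar depth the microglial median of the lesion markers was -0.56 and at similar class level -0.12. Gpnmb was at 337 against 643 CPM (ratio 0.523, 0.479 to 0.571) in macrophages. Summed, Gpnmb and Ms4a7 were at 347 CPM in dividing LD cells with 10 to 12 class gene UMIs per 10000. In dividing LD cells with 20 to 30 they were at 10.3 CPM. Non-dividing LD cells at the same class levels held 927 and 66.4 CPM. The part of cells near the class threshold in the lower resident gene levels was not tested.

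Markers of other cells that the sort could hold were lower or near 0 in dividing LD macrophages. Rod photoreceptor genes summed to 69.6 CPM in dividing and 393 CPM in non-dividing LD macrophages, and to 52.0 and 120 CPM in LD microglia. All 8 rod genes had UMIs in each of these groups, with a highest cell of 4.52 per 10000 among dividing and 1519 among non-dividing LD macrophages, and of 13.3 and 466 in LD microglia. Perivascular macrophage markers summed to 137 and 364 CPM and vascular ones to 12.1 and 72.4 CPM in dividing and non-dividing LD macrophages. Mrc1, the mannose receptor of perivascular macrophages, was at 6.66 against 63.9 CPM (ratio 0.104, 0.0518 to 0.187). Cells at 5 or more perivascular UMIs per 10000 were 2 of 89 dividing (2.25%) and 200 of 1189 non-dividing LD macrophages (16.8%). Without cells rich in perivascular, vascular or rod markers, 87 dividing and 963 non-dividing LD macrophages were left, and the perivascular median log2 ratio was 0.23. In the same cells the median was -1.09 for the inflammatory list, -0.71 for the immediate-early and heat-shock list and -1.47 for MHC class II. T and NK cell genes and erythrocyte genes had 0 UMIs in dividing LD cells. Neutrophil and granulocyte precursor genes summed to 6.63 CPM in dividing and 1.71 CPM in non-dividing microglia, and to 7.27 and 3.36 CPM in macrophages. Dendritic cell genes summed to 2.58 CPM in dividing and 2.87 CPM in non-dividing microglia, and to 4.24 and 17.2 CPM in macrophages. Doublet scoring marked 15 of 238 dividing LD cells (6.30%), against 5.44% of all LD cells. Some ratios rested on a single cell. Saa3, an acute-phase protein, was at 16.2 against 4.65 CPM (ratio 3.49, 2.45 to 4.86) in microglia with 86.4% of the dividing UMIs in 1 cell, and at 7.27 against 95.4 CPM (ratio 0.0762, 0.0393 to 0.134) in macrophages. Its macrophage log2 ratio was -3.71 over all cells and -0.80 without cells rich in other markers. Irak1 was at 115 against 34.3 CPM (ratio 3.34, 2.95 to 3.78) in microglia with 72.3% in 1 cell, and at a log2 ratio of -0.039 once marked doublets were left out.

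The dividing LD classes were also set side by side. Of 5102 genes with a mean of at least 20 CPM over the dividing classes, 749 were over 1.5 times higher in dividing microglia than in dividing macrophages (14.7%) and 277 lower (5.43%). Among non-dividing cells of the same classes the counts were 678 (14.1%) and 477 (9.95%) of 4796. The class rule chose these groups, so the genes that set them apart are a description. Sparc, a matrix protein of resident microglia, was at 1836 CPM in dividing microglia and 101 CPM in dividing macrophages, a ratio of 18.3, with 15.3 among non-dividing cells. The ratio of Cd34 was 7.499 among dividing and 8.41 among non-dividing cells, and that of Lag3 6.26 and 10.8. Phgdh, the first enzyme of serine synthesis, was at 129.7 CPM in dividing microglia and 23.0 CPM in dividing macrophages, a ratio of 5.64 (4.03 to 8.10), with 2.94 (2.51 to 3.46) among non-dividing cells. At the other end Gpnmb was at 23.6 CPM in dividing microglia and 337 CPM in dividing macrophages, a ratio of 0.0701, with 0.0469 among non-dividing cells. Ccr2 had ratios of 0.0757 and 0.113, Cxcl2 of 0.120 and 0.0841, and H2-Aa of 0.144 and 0.0708, in the same order. The mitosis list, which they share, had a ratio of summed CPM of 1.28 (1.25 to 1.31).

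For the 10 dividing ctrl microglia, with 55091 UMIs in all, only abundant genes can be read. Top2a was at 635 CPM in dividing and 0.602 CPM in non-dividing ctrl microglia (35 and 11 UMIs), and Stmn1 at 1252 and 23.4 CPM. The mitosis list summed to 9149 CPM in dividing and 237 CPM in non-dividing ctrl microglia, and the replication list to 4175 and 367 CPM. P2ry12 was at 998 CPM in dividing and 2338 CPM in non-dividing ctrl microglia (55 and 42723 UMIs), and Cst3 at 31021 and 72193 CPM. Il1b was at 2233 CPM in dividing and 227 CPM in non-dividing ctrl microglia, the opposite order to LD microglia, and 42.3% of its 123 UMIs there were in 1 cell. The whole inflammatory list summed to 31403 CPM in dividing and 7689 CPM in non-dividing ctrl microglia, also the opposite order to LD. The immediate-early and heat-shock list kept the LD order, at 23978.5 and 34025 CPM. These sums rest on 10 dividing cells.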

How the data were processed

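Single-cell RNA sequencing was done on live retinal cells sorted for Cx3cr1-YFP, 1 library for LD and 1 for ctrl. The authors deposited UMI counts per gene and barcode, raw and not normalized, with gene and barcode tables. Cell Ranger 2.0.0 and mm10 are named in the submitters' processing notes; further steps are not stated in them. The counts were tested to be whole numbers. Where 1 symbol belonged to several identifiers, which was so for 56 symbols of 27998 identifiers, the one with the highest total was taken.

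Barcodes passed with at least 300 genes and at most 10% UMIs of mitochondrial genes. UMIs were summed over the cells of a group and expressed as CPM. Ratios carry exact 95% intervals for 2 Poisson counts and shares exact Clopper-Pearson intervals, which describe counting error alone, not differences between mice or libraries. With 1 library per group no test between groups was possible and no p-value was computed; a gene was counted as higher or lower when its CPM ratio passed 1.5 in either direction at a mean level of at least 20 CPM. A ratio with a count of 0 below would be taken against a floor of 3 counts; none is printed here. Doublets were not removed; in an alternative, the barcodes with the highest Scrublet scores were, 0.8% per 1000 barcodes, because the automatic threshold marked 1 LD and 0 ctrl barcodes. That took out 370 LD and 125 ctrl cells.

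Named genes were the 12 highest and 12 lowest ratios at 50 CPM or more on no cycle list, up to 4 members of each list by level, list members past 1.5 times in both classes, the 10 highest and 10 lowest ratios between dividing classes, and the 12 genes of the rule. Ccnd1, Lgals1, Olfml3, Trem2, Vim and the genes called in opposite directions in the classes were named outside this rule, after their values were seen, and Hells for its promoter. The cells and the 31 gene lists were chosen with earlier results of these data known, so nothing here is independent of those. Of 499 list entries, 496 had a matching symbol in the files; the rest were not analysed here. The calculation of ratios and intervals was checked on simulated counts with known changes in 200 genes per class. Of the changed genes, 99.5% were recovered for LD microglia and 100% for LD macrophages. False calls numbered 1 of 4907 genes run for microglia and 38 of 4721 for macrophages. Interval cover was 94% and 95.5%.

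Promoters came from RefSeq on GRCm38.p6, the assembly that mm10 names, 250 bases before to 50 after each gene's start. Tools were Python 3.11.15, numpy 2.4.6, scipy 1.17.1, pandas 2.3.3, scanpy 1.11.5 and matplotlib 3.10.9.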

Additional observations from a re-analysis of the deposited data

How the results depend on the processing

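No paired analysis was possible because each group was 1 library with no replicate. The share of dividing LD microglia was 2.25% at a cycle threshold of 10 and 1.55% at a class threshold of 20, and that of LD macrophages 5.09% at a cycle threshold of 10. Dividing ctrl macrophages were 0% without cells rich in other markers, a setting chosen after seeing the data. Genes over 1.5 times lower in dividing LD microglia numbered 328 at similar depth. With no minimum level, 3508 genes were higher and 6132 lower in microglia and 2810 and 6027 in macrophages; with a minimum of 100 CPM the counts were 342 and 142, and 258 and 130, since the number of genes counted differs. The other 75 recalculated shares and counts stayed within their interval or within 1.5 times.

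Some log2 ratios that passed 1.5 times changed sign. In microglia at similar depth these were the monocyte list at -0.052, the lesion list at -0.56, Fabp5 at -0.26, Folr2 at -0.20, Lgals3 at -0.56 and Spp1 at -0.51. At similar class level they were the class genes at 0.028, P2ry12 at 0.028, P2ry13 at 0.039, the lesion list and Lgals3 at -0.12, Ccl2 at -0.13 and Spp1 at -0.049. Saa3 was at -1.33 at a cycle threshold of 10 and Irak1 at -0.039 without marked doublets. In macrophages Sparc was at 0.30 at a class threshold of 20, Ccl5 at 0.076 and Cxcl10 at -0.30 at a class threshold of 5, and the perivascular list and Ccl2 at 0.23 without cells rich in other markers. Ratios inside 1.5 times changed sign in 45 recalculations of genes and 13 of list medians, among them in microglia Ccr2 at -0.77 at similar depth, Tmem119 at 0.36 and Sparc at 0.038 at similar class level, Gpnmb at 0.45 when each cell's CPM was averaged, and Mrc1 at 1.20 without cells rich in other markers. The cause was not tested. List medians moved by less than 1.5 times in 632 recalculations and by more in 27, and 5 that had passed 1.5 times changed sign. Depth limits what the 13 dividing ctrl cells can show, and no interval here covers variation between mice.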
